A study of Mus musculus with 9 samples.

Results

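The complement genes described here are C1qa, C1qb and C1qc, which encode the 3 chains of C1q, the components C3, Cfb (factor B) and Cfp (properdin), and the anaphylatoxin receptors C3ar1 and C5ar1. They were chosen by gene name, and all 8 were found among the 54532 genes with deposited values. RNA was sequenced from CD11c+ cells sorted from mouse spleens, with 3 samples in each of 3 groups. N-mDCs were mature conventional dendritic cells (cDCs) of normal spleens. T-mDCs were the mature cDCs of spleens with T cell acute lymphoblastic leukemia (T-ALL), and T-DCs were the CD11c+MHCIIlo cells of such spleens. The leukemia was driven by the intracellular domain of Notch1 (ICN1), delivered with GFP by the retrovirus MSCV-ICN1-IRES-GFP, and was passed without irradiation into young female mice of the C57BL/6J or C57B6.SJL strain, which kept their own immune cells. By the study's methods the cells were sorted at the late stage of leukemia, after lysis of red blood cells, with CD11c+ cells enriched on microbeads before T-DCs were sorted. Normal mice received no treatment according to the labels. The labels do not say whether the 3 samples of a group came from separate mice, and p-values therefore measure only the spread between samples, which may be technical.

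Complement is a cascade of plasma proteins that tags particles for uptake, calls in leukocytes and can puncture membranes. C1q starts the classical pathway when it binds antibody or surfaces of dying cells. C3 is the protein on which the pathways meet, and factor B with properdin form and hold the enzyme that cleaves more C3 in the alternative pathway. Cleavage of C3 and C5 releases the small peptides C3a and C5a, which act through C3aR and C5aR1. Much of the C3 in plasma comes from liver, whereas C1q and properdin are made largely by myeloid cells, and spleen macrophages are a rich source of C1q.

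All 8 genes lie on the minus strand in genome build GRCm38, and their ends are the same in the deposited table and in GENCODE M21. The C1q genes sit side by side on chromosome 4 within 18675 bases, with C1qb at chr4:136880129-136886187, C1qc at chr4:136889804-136893065 and C1qa at chr4:136895917-136898803, and each has 3 exons. C3 is at chr17:57203970-57228136 and Cfb at chr17:34856374-34862518, where it ends 85 bases from C2. C5ar1 is at chr7:16246743-16259540, 2588 bases from C5ar2, the second receptor for C5a. C3ar1 is at chr6:122847138-122856161 and Cfp at chrX:20925454-20931555. Cfb also overlaps the gene model Gm20547, which was listed at 0 in every sample.

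The 250 bases before the start site are shown for C1qb and Cfp, whose levels moved together over the samples, and for C3, whose level did not follow them. The sequences are from RefSeq (GRCm38.p6) and are written 5′ to 3′ along the gene, and the table used here held such a sequence for 6 of the 8 genes. Capitals mark matches, on either strand, to a MAF site (TGCTGA), the core bound by PU.1 and other ETS factors (GGAAGT) or a C/EBP motif (TTGCNNAA).
C1qb, chr4:136886201-136886450: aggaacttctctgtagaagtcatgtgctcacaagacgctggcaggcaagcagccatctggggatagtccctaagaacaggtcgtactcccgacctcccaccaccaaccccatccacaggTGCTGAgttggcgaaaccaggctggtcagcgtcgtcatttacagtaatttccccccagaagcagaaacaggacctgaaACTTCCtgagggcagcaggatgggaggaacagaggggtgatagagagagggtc
Cfp, chrX:20931556-20931805: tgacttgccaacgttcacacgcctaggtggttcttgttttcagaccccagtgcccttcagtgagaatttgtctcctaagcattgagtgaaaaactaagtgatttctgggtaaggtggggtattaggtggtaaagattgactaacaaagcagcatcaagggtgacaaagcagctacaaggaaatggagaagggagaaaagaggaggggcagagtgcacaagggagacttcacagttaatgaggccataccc
C3, chr17:57228137-57228386: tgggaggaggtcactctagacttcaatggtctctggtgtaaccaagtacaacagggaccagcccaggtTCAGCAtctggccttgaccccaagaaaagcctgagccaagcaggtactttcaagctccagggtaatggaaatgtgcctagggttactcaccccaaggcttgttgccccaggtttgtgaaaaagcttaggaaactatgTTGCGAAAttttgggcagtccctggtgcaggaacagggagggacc
The C1qb sequence held a MAF site and an ETS core on the other strand, the C3 sequence held a MAF site on the other strand and a C/EBP motif, and the Cfp sequence held none of the motifs searched. Over 32851 promoters of the same table, 16.1% held the MAF site, 19.7% the ETS core and 9.56% the C/EBP motif in this window. The other motifs searched were TTCNNNGAA, bound by STAT factors, and TATAAA, the core promoter element, held by 7.02% and 12.4% of promoters, and neither was in the 3 sequences. Each match is a description of the letters and was not tested for binding.

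Values are FPKM, the reads on a gene per kilobase of its length, scaled to the size of each library. Whole reads could be recovered from FPKM and gene length, and reads on genes ran from 15360815 to 18440913 per sample. Genes that reached an FPKM of 1 in 3 or more samples (12746 in number) were compared on log2(FPKM + 1) in a single limma fit, with Benjamini-Hochberg adjustment over all of them. Adding 1 understates changes of genes at low FPKM. Of the 8 complement genes, 7 passed this filter and C3ar1 did not. Cfb passed only through the 3 T-DC samples, in which it was highest, so that it had to differ between groups, and no count over the 7 genes is support for a difference. T-mDC samples 2 and 3 resembled each other more than the other samples within groups did, with a chi-square of 1.85 per gene over genes of 20 to 200 reads against 8.11 or more for the other pairs. They were kept as separate samples, and the effect of averaging them is given beside the calls below. T-DC samples 2 and 3 held high levels of red blood cell genes (10 erythroid markers summing to 58150 and 42200 FPKM) and of neutrophil genes (4268 and 1503 FPKM for 10 markers), whereas T-DC sample 1 held 613 and 43.6 FPKM. Itgax, which encodes CD11c, was present in all samples, at 43.0 to 152 FPKM in the T-DC samples, 158 to 230 FPKM in the N-mDC samples and 159 to 167 FPKM in the T-mDC samples. The sum of 7 dendritic cell markers was 383 to 1629 FPKM in the T-DC samples, against 12710 to 17840 FPKM in the N-mDC samples and 7663 to 11500 FPKM in the T-mDC samples. This list holds MHCII genes, and T-DCs were sorted for low MHCII, but its other markers of dendritic cells were low in T-DCs too. Flt3 was at 4.48 to 15.4 FPKM in the T-DC samples and at 44.4 FPKM or more in the others, Zbtb46 at 1.84 to 3.42 FPKM and at 10.7 FPKM or more, and Dpp4 at 6.63 to 16.4 FPKM and at 29.4 FPKM or more.

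Among the 3 groups, only C5ar1 of the 7 tested genes passed the F-test (adjusted p = 0.0342, limma), and 18.0% of all tested genes did. In T-DCs against N-mDCs, Cfb, which passed the filter only through T-DCs, was called higher and no gene lower. Of all tested genes, 6.10% were called higher and 10.3% lower. In T-DCs against T-mDCs, C5ar1 was called higher and no gene lower, with 5.44% of all tested genes called higher and 8.79% lower. In T-mDCs against N-mDCs, limma called none of the 7 genes, with 2.21% of all genes called, although 5 of the 7, and 2130 of all 12746 genes, had an unadjusted p under 0.05 there. Limma voom called 0 of them as well. Both T-DC comparisons share the T-DC samples, so that they are not independent of each other.

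Side by side, 3 of the 7 genes had higher and 4 lower values in T-DCs when compared with N-mDCs, and the median log2 fold change was -0.71 beside 0.05 over all tested genes. The T-DC samples lay above all N-mDC samples for C3 and C5ar1, where 16.0% of all tested genes did so. They did so for Cfb too, but Cfb passed the filter only through T-DCs, so that this was fixed beforehand. Against T-mDCs, all 7 values were higher in T-DCs, with a median of 0.92 beside 0.07 over all genes. C5ar1 did not overlap, where 16.8% of all genes did not overlap in this direction, and Cfb again could not overlap. In T-mDCs against N-mDCs the median was -1.44 beside 0.03 over all genes, and the 3 C1q chains and Cfp lay below all N-mDC samples, where 15.7% of all genes did so.

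**Figure D1:**
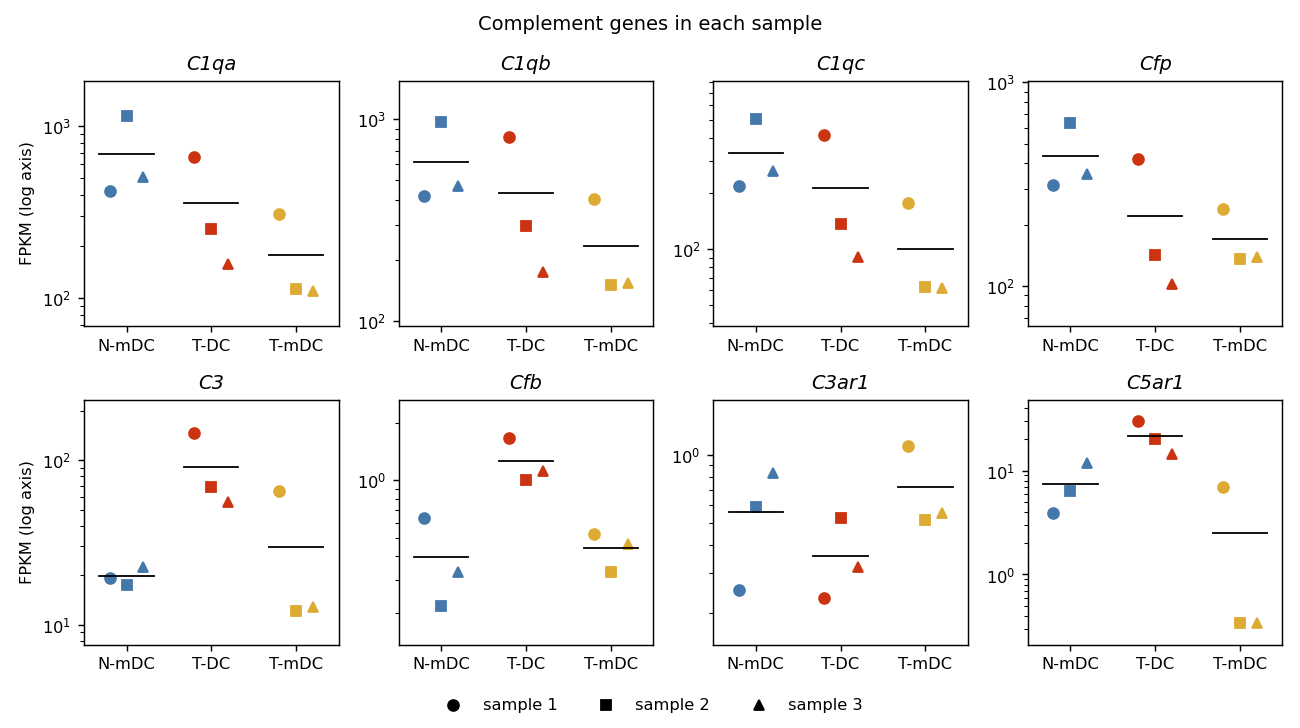
Each panel shows the FPKM of 1 complement gene on a log axis in the 9 samples, with the marker shape giving the sample number and the bar the mean of the group. The C1q genes and Cfp are spread widely within each group, whereas the 3 T-DC samples lie above all N-mDC samples for C3, Cfb and C5ar1.

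The chains of C1q were among the most abundant transcripts in every group. C1qa encodes the A chain, and its group means exceeded those of 99.2% to 99.8% of the genes detected in any sample. C1qa was at 421, 1148 and 509 FPKM in N-mDC samples 1 to 3, at 659, 251 and 157 FPKM in T-DC samples 1 to 3, and at 307, 113 and 110 FPKM in T-mDC samples 1 to 3. Thus N-mDC sample 2 was the highest of the 9, and T-DC sample 1 stood among the N-mDC samples while the other T-DC samples did not. The mean was 693 ± 397 FPKM in the N-mDC samples, 356 ± 267 FPKM in the T-DC samples and 177 ± 113 FPKM in the T-mDC samples (SD, n = 3 each).

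C1qb, the B chain, was at 418, 967 and 467 FPKM in the N-mDC samples, at 821, 298 and 175 FPKM in the T-DC samples, and at 401, 151 and 154 FPKM in the T-mDC samples. C1qc, the C chain, was at 218, 506 and 265 FPKM in the N-mDC samples, at 414, 137 and 90.4 FPKM in the T-DC samples, and at 177, 62.4 and 61.6 FPKM in the T-mDC samples. For all 3 chains the N-mDC samples lay above the T-mDC samples without overlap, and the T-DC samples overlapped both groups. Within T-DCs alone the highest sample exceeded the lowest 4.20-fold for C1qa, 4.70-fold for C1qb and 4.58-fold for C1qc.

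None of the chains was called in any comparison. The log2 fold change of T-DCs against N-mDCs was -1.08 for C1qa (SE 0.63, adjusted p = 0.248, limma), with a 95% interval from -2.50 to 0.35. It was -0.71 for C1qb and -0.83 for C1qc, with adjusted p = 0.443 and 0.371 in limma. Against T-mDCs the differences were 0.92, 0.73 and 0.96 for C1qa, C1qb and C1qc, with adjusted p from 0.342 to 0.463 in limma. The largest differences were those of T-mDCs against N-mDCs, at -1.99 for C1qa (SE 0.63, adjusted p = 0.156, limma), -1.44 for C1qb (adjusted p = 0.291) and -1.80 for C1qc (adjusted p = 0.197). Without T-DC sample 1, C1qa fell in T-DCs relative to N-mDCs by the test (log2 fold change -1.65, adjusted p = 0.0484, limma), in a fit that called 5030 of the 12746 genes. Its log2 fold change was -0.62 without T-DC sample 3 and -0.64 without N-mDC sample 2, and for C1qb and C1qc it was -0.21 and -0.37 without T-DC sample 3, -0.34 and -0.48 without N-mDC sample 2, and -1.33 and -1.46 without T-DC sample 1. In bulk samples, fewer cells that make C1q and less C1q RNA in each cell cannot be told apart.

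The summed level of macrophage markers moved with the C1q genes over the samples. The 15 macrophage markers listed without C1q, among which Hmox1 and Apoe are the most abundant, summed to 2417 to 4161 FPKM in the N-mDC samples. They summed to 4668, 1674 and 1193 FPKM in T-DC samples 1 to 3 and to 2015, 527 and 521 FPKM in T-mDC samples 1 to 3, and none of the 15 was at 0 in any sample. Over the 9 samples, Pearson's r of log2 values with this sum was 0.956 for C1qa, 0.953 for C1qb and 0.975 for C1qc, as a description of samples that also share their group. Per 1000 FPKM of the macrophage sum, C1qa was at 166 to 276 FPKM in the N-mDC samples, 132 to 150 FPKM in the T-DC samples and 153 to 215 FPKM in the T-mDC samples. The samples thus differed up to 10.5-fold in C1qa itself and less than that in C1qa relative to these markers. Single markers of the list differed, however. Their log2 fold changes in T-DCs against N-mDCs ran from -1.84 for Hmox1 to 0.28 for Csf1r, with Apoe at -0.06. Values scaled to the macrophage sum, here and below, thus depend on its markers. The part of macrophage transcripts in the C1q levels was not tested.

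**Figure D2:**
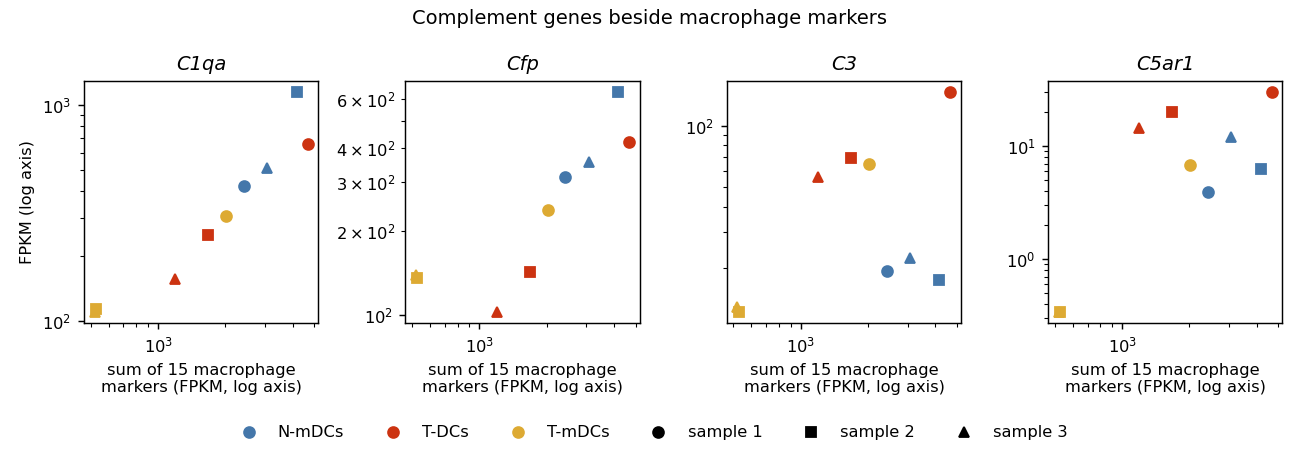
The FPKM of C1qa, Cfp, C3 and C5ar1 (y, log axis) is plotted against the summed FPKM of 15 macrophage markers (x, log axis) in the 9 samples, with colour for the group and shape for the sample number. C1qa rises with the marker sum over all samples (r = 0.956), whereas the T-DC samples lie above the N-mDC samples for C3 and C5ar1 at marker sums that run from below to just above theirs.

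The chains followed each other closely, with r from 0.984 to 0.993 between pairs over the 9 samples, but their ratios were not the same in the 3 groups. This comparison was chosen after the values were seen. The ratio of C1qb to C1qa FPKM was 0.992, 0.842 and 0.918 in the N-mDC samples, 1.25, 1.19 and 1.11 in the T-DC samples, and 1.31, 1.34 and 1.40 in the T-mDC samples. No samples of different groups overlapped in this ratio, and T-DCs lay between the others. The ratio of C1qc to C1qa was 0.440 to 0.522 in the N-mDC samples, below the range of 0.544 to 0.628 in the T-DC samples and 0.550 to 0.577 in the T-mDC samples, which overlapped. Each of these values rests on at least 2101 reads per gene. With 3 samples against 3, an exact permutation test cannot give a two-sided p below 0.1, so no p is given.

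**Figure D3:**
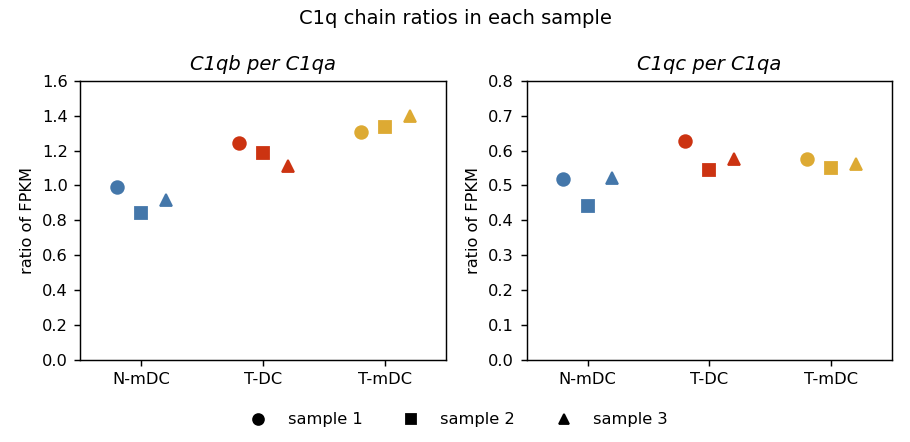
The ratio of C1qb to C1qa FPKM (left) and of C1qc to C1qa FPKM (right) is shown in each of the 9 samples, with the marker shape giving the sample number. The C1qb ratio is 0.842 to 0.992 in the N-mDC samples, 1.11 to 1.25 in the T-DC samples and 1.31 to 1.40 in the T-mDC samples, with no overlap.

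The genes whose levels were most like the mean profile of the C1q chains over the 9 samples were Tmem86a, Pld3, Fcna and Ppm1n, with r from 0.985 to 0.986. Fcna encodes ficolin A, a starter of the lectin pathway. It was at 222, 535 and 259 FPKM in the N-mDC samples, at 404, 97.3 and 85.3 FPKM in the T-DC samples and at 188, 39.2 and 39.3 FPKM in the T-mDC samples. As with C1q, T-DC sample 1 and N-mDC sample 2 stood high and T-mDC samples 2 and 3 low.

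Cfp encodes properdin, the positive regulator of the alternative pathway. It was at 314, 634 and 356 FPKM in the N-mDC samples, at 420, 143 and 102 FPKM in the T-DC samples, and at 239, 136 and 139 FPKM in the T-mDC samples. Its order over the samples resembled that of C1qa (r = 0.946), and its N-mDC samples again lay above all T-mDC samples while T-DCs overlapped both groups. The log2 fold change was -1.17 in the T-DC samples against N-mDCs (SE 0.52, adjusted p = 0.146, limma) and -1.32 in the T-mDC samples against N-mDCs (SE 0.52, adjusted p = 0.249, limma). Against T-mDCs, T-DCs differed by 0.15 (adjusted p = 0.871, limma), with a 95% interval from -1.04 to 1.33, and the sign turned with the scaling, to -0.18 on TPM and -0.10 after quantile normalization. Without T-DC sample 1, Cfp fell in T-DCs relative to N-mDCs (log2 fold change -1.77, adjusted p = 0.00708, limma), again with 5030 genes called in all, and its log2 fold change was -0.76 without T-DC sample 3 and -0.87 without N-mDC sample 2. Per 1000 FPKM of the macrophage sum, Cfp was at 85.2 to 89.9 FPKM in the T-DC samples, below the 116 to 152 FPKM of N-mDCs and the 119 to 267 FPKM of T-mDCs. The genes most like Cfp were Bri3, Ripk3, Tk2 and Slc50a1, with r from 0.977 to 0.979.

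C3, the central component, had another pattern. It was at 19.4, 17.5 and 22.4 FPKM in the N-mDC samples, at 146, 69.3 and 56.2 FPKM in the T-DC samples, and at 64.7, 12.2 and 12.9 FPKM in the T-mDC samples. All T-DC samples lay above all N-mDC samples, and T-mDC sample 1 lay between T-DC samples 2 and 3 while the other T-mDC samples were the lowest of the 9. The mean was 90.6 ± 48.7 FPKM in the T-DC samples, 19.7 ± 2.45 FPKM in the N-mDC samples and 29.9 ± 30.1 FPKM in the T-mDC samples (SD, n = 3 each).

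The log2 fold change of C3 in the T-DC samples was 2.02 against N-mDCs (SE 0.61, adjusted p = 0.0539, limma) and 1.87 against T-mDCs (SE 0.61, adjusted p = 0.0743, limma), so that neither passed the threshold. Without T-mDC sample 1 both passed, at 2.02 against N-mDCs (adjusted p = 0.00872, limma) and at 2.63 against T-mDCs (adjusted p = 0.00456, limma). With T-mDC samples 2 and 3 averaged, C3 differed from T-mDCs by 1.49 (adjusted p = 0.250, limma). C3 passed against N-mDCs in a fit of these groups alone as well (adjusted p = 0.0238, limma). T-mDCs differed from N-mDCs by 0.15 (adjusted p = 0.927, limma), and by -0.61 without T-mDC sample 1.

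C3 followed the macrophage markers less closely over the 9 samples (r = 0.474), beside 0.845 for Cfp and 0.745 for C5ar1. Per 1000 FPKM of the macrophage sum, C3 was at 4.21 to 8.01 FPKM in the N-mDC samples, 31.4 to 47.1 FPKM in the T-DC samples and 23.1 to 32.1 FPKM in the T-mDC samples. Relative to C1qa, C3 was at 0.0153 to 0.0460 in the N-mDC samples, 0.222 to 0.358 in the T-DC samples and 0.107 to 0.211 in the T-mDC samples, with no overlap between groups. Both groups from leukemic spleens thus held more C3 per C1qa than N-mDCs, although C3 itself did not pass the test between them. These ratios were chosen after the values were seen and carry no test. The genes most like C3 were Fcgr2b, Nln, Gsr and Lifr, with r from 0.980 to 0.986. Fcgr2b, the inhibitory Fc receptor for IgG, was at 11.8, 10.1 and 14.9 FPKM in the N-mDC samples, at 61.8, 27.7 and 21.5 FPKM in the T-DC samples and at 28.7, 8.74 and 8.53 FPKM in the T-mDC samples.

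Cfb, the protease subunit of the alternative C3 convertase, was low throughout. It was at 0.634, 0.220 and 0.331 FPKM in the N-mDC samples, at 1.66, 1.01 and 1.12 FPKM in the T-DC samples, and at 0.525, 0.330 and 0.462 FPKM in the T-mDC samples. These values rest on 10 to 28 reads in N-mDCs, 44 to 84 reads in T-DCs and 18 to 28 reads in T-mDCs. The T-DC samples lay above all others. The log2 fold change was 0.70 against N-mDCs (SE 0.19, adjusted p = 0.0380, limma) and 0.64 against T-mDCs (SE 0.19, adjusted p = 0.0535, limma). Without the filter, the adjusted p values were 0.0598 and 0.0820 in limma, and the call against N-mDCs was also lost when 1 sample was left out (N-mDC sample 2, N-mDC sample 3, T-DC sample 2, T-DC sample 3 or any T-mDC sample), and with T-mDC samples 2 and 3 averaged (adjusted p from 0.0505 to 0.105, limma). A further fit, chosen after the data were seen, used the recovered reads of 20196 genes with at least 10 reads in all. This filter did not select on the T-DC samples. The log2 fold change of Cfb there was 1.70 against N-mDCs (adjusted p = 0.0434, limma voom) and 1.35 against T-mDCs (adjusted p = 0.0792, limma voom). Because of that choice, this fit is no independent support for the call. Mknk2, Ints12 and Eif4ebp2 were among the genes most like Cfb, with r of 0.970, 0.966 and 0.963.

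The receptor C5ar1, by which myeloid cells sense C5a, had the widest range of the 8 genes, with its highest sample 89.4-fold above its lowest. It was at 3.93, 6.31 and 12.0 FPKM in the N-mDC samples, at 30.3, 20.2 and 14.4 FPKM in the T-DC samples, and at 6.88, 0.342 and 0.339 FPKM in the T-mDC samples. All T-DC samples lay above all samples of the other groups. T-mDC samples 2 and 3 held 17 and 16 reads and T-mDC sample 1 held 334 reads, so that the spread within T-mDCs was 20.3-fold.

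C5ar1 was higher in T-DCs than in T-mDCs by 3.17 on the log2 scale (SE 0.68, adjusted p = 0.0196, limma), with a 95% interval from 1.61 to 4.72. The difference from N-mDCs was 1.48 (SE 0.68, adjusted p = 0.158, limma), with an interval from -0.07 to 3.04. T-mDCs differed from N-mDCs by -1.68 (adjusted p = 0.262, limma). The call against T-mDCs was lost when T-mDC samples 2 and 3 were averaged (log2 fold change 2.74, adjusted p = 0.0872, limma) and without T-DC sample 2, T-mDC sample 2 or T-mDC sample 3 (adjusted p = 0.0619, 0.0880 and 0.0869). Without T-mDC sample 1, C5ar1 was called higher in T-DCs than in N-mDCs (adjusted p = 0.0415, limma) and lower in T-mDCs than in N-mDCs (log2 fold change -2.53, adjusted p = 0.0356, limma).

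Per 1000 FPKM of the macrophage sum, C5ar1 was at 6.48 to 12.1 FPKM in the T-DC samples, 1.52 to 3.90 FPKM in the N-mDC samples and 0.650 to 3.42 FPKM in the T-mDC samples. Per 1000 FPKM of 8 monocyte markers, it was at 14.9 to 16.4 FPKM in the T-DC samples, 2.97 to 6.72 FPKM in the N-mDC samples and 1.13 to 11.0 FPKM in the T-mDC samples. The T-DC samples were above the others on both scales. In the N-mDC samples, Nr4a1 made up 1183 to 1435 FPKM of the monocyte sum of 1323 to 1783 FPKM. Nr4a1 was at 302 to 1046 FPKM in the T-DC samples. Ace and Cx3cr1 were higher in T-DCs, at 157 to 424.5 and 34 to 92 FPKM. They were at 19.4 to 48.2 and 8.72 to 16.5 FPKM in the N-mDC samples. Chil3 and Treml4 also had higher T-DC means, and Ly6c2, Ccr2 and F13a1 lower ones. The monocyte scale thus depends on its markers, and r of C5ar1 with that sum was 0.841. T-DC sample 1, with the lowest neutrophil marker sum of the T-DC samples, had the highest C5ar1. In N-mDC samples 1 to 3, C5ar1 rose along with the neutrophil sum, which was 87.0, 448 and 771 FPKM. Over the 9 samples, r of C5ar1 with the neutrophil sum was 0.601. The part of other myeloid cells in the C5ar1 level was not tested. The genes most like C5ar1 were Lilra5, Hp, Alox5 and Mgst1, with r from 0.987 to 0.989. Hp, which encodes the hemoglobin-binding protein haptoglobin, was at 186, 128 and 89.5 FPKM in the T-DC samples, at 5.62, 28.6 and 44.9 FPKM in the N-mDC samples, and at 32.4, 0.387 and 0.474 FPKM in the T-mDC samples. Alox5, the enzyme that starts leukotriene synthesis, was at 4.88, 5.25 and 3.38 FPKM in the T-DC samples, at 1.34, 2.36 and 3.09 FPKM in the N-mDC samples, and at 1.86, 0.126 and 0.305 FPKM in the T-mDC samples.

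The study lists a qRT-PCR primer pair for C5ar1, which is shown because it marks the stretch of the transcript that assay reads.
C5ar1 forward primer: aggtctctccccagcatcat
C5ar1 reverse primer: gtcgtggacggagtgaaagt
Both primers lie in the coding sequence of the last exon and span 83 bases at chr7:16248072-16248154. Since no intron lies between them, genomic DNA would give a product of the same length. The study reports that qRT-PCR verified the genes of a regulatory dendritic cell signature that were higher in T-DCs. Its text does not name these genes, and the assay's values were not analysed here.

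C3ar1, the receptor for C3a, was low and rests on 17 to 89 reads per sample. It was at 0.253, 0.592 and 0.832 FPKM in the N-mDC samples, at 0.233, 0.525 and 0.321 FPKM in the T-DC samples and at 1.10, 0.517 and 0.556 FPKM in the T-mDC samples. The T-DC samples overlapped both other groups, and no sample but T-mDC sample 1 reached 1 FPKM. With all detected genes in the fit, the log2 fold change of T-DCs was -0.19 against N-mDCs (adjusted p = 0.584, limma) and -0.33 against T-mDCs (adjusted p = 0.399, limma). With recovered reads these were -0.62 (adjusted p = 0.505, limma voom) and -1.14 (adjusted p = 0.219, limma voom), with a 95% interval from -2.37 to 0.09 for the second. The T-DC values of C3ar1 thus had the opposite sign to those of C5ar1 in both comparisons, and at this depth no difference of C3ar1 passed the test. The genes most like C3ar1 were Alpl, Gm7785, Pdia4 and Gm4152, at a weaker likeness than for the other genes (r from 0.827 to 0.907).

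**Figure D4:**
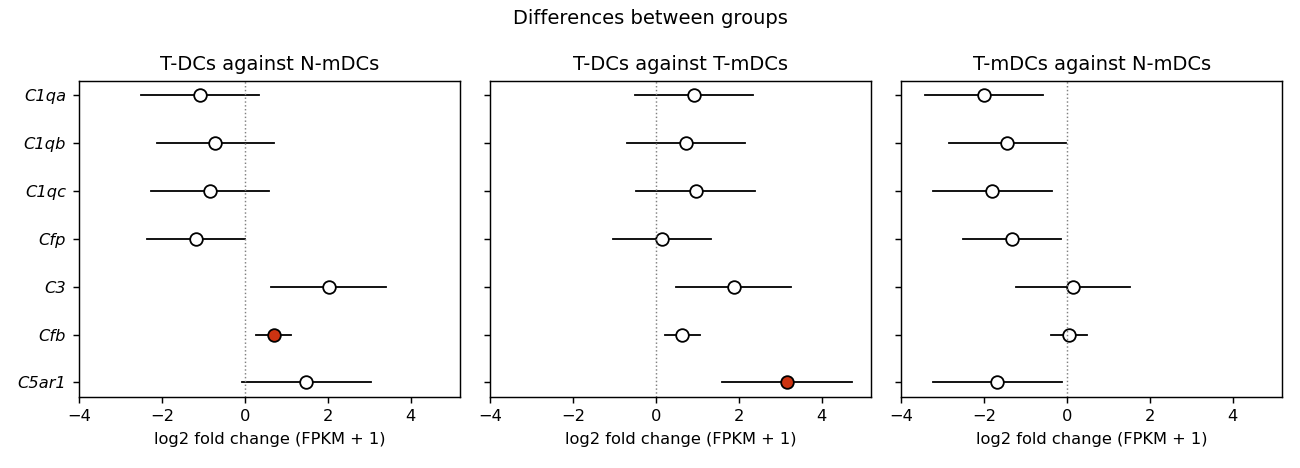
The log2 fold change on log2(FPKM + 1) is shown for the 7 tested complement genes in the 3 comparisons, with bars for the 95% interval of the limma fit and filled points for an adjusted p under 0.05. Filled points are Cfb against N-mDCs (0.70) and C5ar1 against T-mDCs (3.17), and the intervals of the C1q genes include 0 in both T-DC comparisons.

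A wider list of 52 complement genes, of which 25 were tested, gives the surroundings of these genes. In T-DCs against N-mDCs, 1 rose (Cfb) and 2 fell, where 6.10% of all tested genes were called higher and 10.3% lower. Cfb passed the filter only through T-DCs, so that its rise cannot be set beside these shares. Cr2, the receptor for C3d on B cells and follicular dendritic cells, was at 8.42, 4.13 and 6.60 FPKM in the N-mDC samples and at 0.0275, 0.0795 and 0.0487 FPKM in the T-DC samples (log2 fold change -2.77, adjusted p = 0.000696, limma). Clu, which encodes clusterin, an inhibitor of the membrane attack complex, was at 2.58 to 3.05 FPKM in the N-mDC samples and 0.146 to 0.575 FPKM in the T-DC samples (log2 fold change -1.44, adjusted p = 0.00255, limma). The sum of 5 B cell markers was 208 to 283 FPKM in the N-mDC samples and 31.2 to 88.7 FPKM in the T-DC samples, and its part in the Cr2 difference was not tested.

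In T-DCs against T-mDCs, 6 genes of the list rose and 1 fell, where 5.44% of all tested genes were called higher and 8.79% lower. The receptors of the list that rose were C5ar1, C5ar2 (log2 fold change 0.95) and Itgam (1.39), which encodes the alpha chain of complement receptor 3. For the protein of Itgam, CD11b, the study's flow cytometry showed less on T-DCs than on either mature group, unlike this RNA difference from T-mDCs. From N-mDCs, Itgam RNA in T-DCs differed by 0.42, with overlapping samples (adjusted p = 0.438, limma). The membrane regulators that rose against T-mDCs were Cd55 (1.54), Cd59a (2.75) and Cr1l (0.60). Cd55 encodes decay-accelerating factor, and it was at 7.01, 9.77 and 9.89 FPKM in the T-DC samples and at 4.69, 1.31 and 1.89 FPKM in the T-mDC samples (adjusted p = 0.0162, limma). Cd59a encodes an inhibitor of the membrane attack complex, also found on red blood cells. Cd59a reached 1 FPKM only in T-DCs and, like Cfb, passed the filter through that group alone, so that it had to differ. It was at 1.02, 11.9 and 23.6 FPKM in the T-DC samples, with the high values in T-DC samples 2 and 3, the samples with high erythroid marker sums. Cr2 fell in this comparison (log2 fold change -0.97, adjusted p = 0.0371, limma). With T-mDC samples 2 and 3 averaged, none of the 7 calls in this comparison passed. With an erythroid covariate in the fit, the log2 fold change of C5ar1 was 3.001 (adjusted p = 0.332, limma), but limma then called 0 of all 12746 genes in this comparison, with 1830 at an unadjusted p under 0.05, so that the lost calls say nothing about C5ar1 or the list.

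In T-mDCs against N-mDCs, Cr2 (log2 fold change -1.79, adjusted p = 0.0155, limma) and Clu (log2 fold change -1.05, adjusted p = 0.0332, limma) fell, and 22 of the 25 tested genes had lower values. Over all tested genes, 6026 of 12746 had lower values and 2.21% were called in either direction. The calls of Cr2 and Clu were lost when T-mDC samples 2 and 3 were averaged and without N-mDC sample 3, T-mDC sample 2 or T-mDC sample 3. The B cell marker sum was 180, 49.4 and 51.7 FPKM in T-mDC samples 1 to 3, below all N-mDC samples, and its part in the Cr2 difference was not tested. Each of the 3 comparisons shares a group with the others, and the values of a gene in them are therefore linked.

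**Figure D5:**
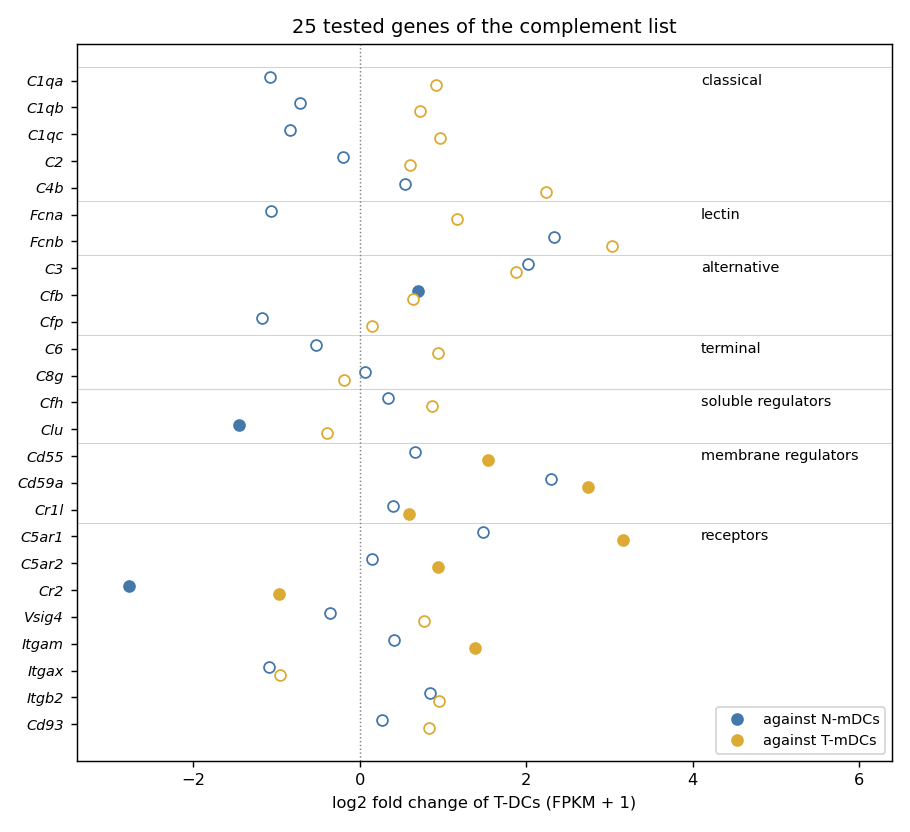
The log2 fold change of T-DCs on log2(FPKM + 1) is shown for the 25 tested genes of the complement list, ordered by class, against N-mDCs (blue) and T-mDCs (yellow), with filled points for an adjusted p under 0.05 (limma). Cr2 is the lowest point against N-mDCs at -2.77, and C5ar1 the highest filled point against T-mDCs at 3.17.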

How the data were processed

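RNA-seq of 9 sorted samples was analysed, with groups taken from the sample titles. The authors deposited FPKM and gene lengths for 54532 genes, and the submitters' processing notes name mm10. The aligner and counter are not given in the sources used here. Reads were recovered as FPKM times gene length times a scaling size per sample, to within 4.26e-06 of a whole read. A linear model (limma 3.58.1, R 4.3.3, moderated with a variance trend) was fitted to log2(FPKM + 1) of 12746 genes, with a threshold of 0.05 on the adjusted p. The fit was tested on simulated data. Over all tested genes, same-numbered samples of different groups did not deviate together, and no pairing was used. For each of the 7 tested complement genes, however, sample 1 was the highest of its group in both T-DCs and T-mDCs. The labels do not say whether same-numbered samples share a mouse or a sort, and this was not tested. Limma voom on the recovered reads called 2027 genes in T-DCs against N-mDCs, 1921 against T-mDCs, and 173 between the mature groups, where the log2(FPKM + 1) fit called 2096, 1813 and 282. The complement genes, the wider list, the markers and the tests were chosen with earlier results of these data known. Named genes were the 8 complement genes, tested genes of the wider list, the 4 genes with the highest r to each profile, and markers, of which some are not reported here. Promoters (RefSeq) were searched with motifs on both strands. Values of qRT-PCR and single cells were not analysed here.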

Additional observations from a re-analysis of the deposited data

How the results depend on the processing

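All counts here are of complement genes called by limma at an adjusted p under 0.05. Of the 8 genes, 1 was called among the 3 groups, 1 in T-DCs against N-mDCs, 1 in T-DCs against T-mDCs and 0 in T-mDCs against N-mDCs, and of the wider list 3, 7 and 2. Of all 12746 tested genes, 2096, 1813 and 282 were called in the 3 comparisons. Among the 3 groups the count was 0 with no filter, TPM, the replicate block, T-mDC samples 2 and 3 averaged or an erythroid covariate, and 2 with quantile normalization or no variance trend. Against N-mDCs, T-DCs had 0 calls with a pseudocount of 0.1, no filter, a filter of FPKM 5, TPM, T-mDC samples 2 and 3 averaged or the erythroid covariate, and the wider list 0 with a filter of FPKM 5. Against T-mDCs, T-DCs had 0 calls with no filter, only the groups compared, T-mDC samples 2 and 3 averaged or the erythroid covariate, and 2 with quantile normalization or the replicate block, which added C3 (adjusted p = 0.0497). The wider list there had 3 calls with no filter, 4 with a filter of FPKM 5 or TPM, 1 with only the groups compared and 0 with T-mDC samples 2 and 3 averaged or the erythroid covariate. In T-mDCs against N-mDCs the wider list had 1 call with a pseudocount of 0.1, TPM, the replicate block, voom or the erythroid covariate and 0 with a filter of FPKM 5 or T-mDC samples 2 and 3 averaged. Array weights gave 7 calls among the groups, 6, 6 and 5 in the 3 comparisons and 20, 22 and 17 in the wider list, but their estimation stopped before convergence and they called 10755 of 12746 genes among the groups. Leaving out 1 sample gave 0 to 4 calls among the groups, 0 to 3, 0 to 2 and 0 to 1 in the 3 comparisons, and 2 to 9, 0 to 11 and 0 to 4 in the wider list. The most calls came without T-DC sample 1 among the groups, against N-mDCs and, for the wider list, in both T-DC comparisons, and the calls over all genes rose in those fits too (to 5374 among the groups, 5030 against N-mDCs and 4475 against T-mDCs, from 2295, 2096 and 1813).

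The 7 tested genes kept their sign in the T-DC comparisons under all alternatives, except Cfp against T-mDCs, at -0.18 with TPM, -0.10 with quantile normalization, -0.010 with voom, -0.0058 with voom on genes with at least 10 reads in all and -0.45 without T-DC sample 1 (-0.45 to 0.57 with 1 sample left out). In T-mDCs against N-mDCs, C3 turned to -0.51 with array weights, -0.0090 with the erythroid covariate and -0.61 without T-mDC sample 1 (-0.61 to 0.55 with 1 sample left out), and Cfb to -0.073, -0.090 and, without N-mDC sample 2, -0.038 (-0.038 to 0.17 with 1 sample left out). None of these was called, and the cause was not tested. C5ar1 against T-mDCs was called under 16 of 23 alternatives and Cfb against N-mDCs under 8 of 22. TPM moved the median log2 fold change of all genes to -0.23 in T-DCs against T-mDCs and 0.23 in T-mDCs against N-mDCs, from 0.07 and 0.03. With the replicate block, C3 passed against N-mDCs (adjusted p = 0.0396) and Cfb did not (adjusted p = 0.0516), so that the count stayed at 1. Over all tested genes, correlations of same-numbered deviations ran from -0.475 to 0.269. Voom on genes with at least 10 reads in all was chosen after seeing the data. Low read numbers limit C3ar1 and Cfb, and C5ar1 in T-mDC samples 2 and 3.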

Other observations

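Of the 52 genes of the complement list, 27 were not tested. The collectins Mbl1, Mbl2 and Colec10 and the terminal components C8b and C9 were listed at 0 in all 9 samples. The limit that 3 reads would give ran from 0.0338 to 0.180 FPKM over these genes and samples, for counting error alone. The proteases that act with C1q were low in all 3 groups. C1ra was at 0.923, 1.42 and 1.46 FPKM in the N-mDC samples, the group in which mean C1q was highest too. It was at 0.177 to 0.318 FPKM in the T-DC samples and 0.146 to 0.382 FPKM in the T-mDC samples. C1s1 held at most 3 reads in any sample. C1ra shares sequence with its copy C1rb and C4a with C4b, so that their reads could be split between them. Hc, which encodes C5, the source of C5a, held at most 28 reads, and Serping1, the inhibitor of C1r and C1s, at most 6 reads. C6 of the terminal pathway was measured at 9.52 to 50.0 FPKM in the T-DC samples, 18.5 to 34.5 FPKM in the N-mDC samples and 5.47 to 22.4 FPKM in the T-mDC samples, and was called in no comparison by limma. Fcnb, a ficolin of neutrophils, was at 0.0417 FPKM in T-DC sample 1 and at 34.5 and 14.4 FPKM in T-DC samples 2 and 3, in which the neutrophil marker sum was high too. C4b was at 0.647 FPKM in T-DC sample 1 and at 14.4 and 8.69 FPKM in T-DC samples 2 and 3. Among the T-DC samples, both genes were thus lowest in sample 1, in which C1q, Cfp and C3 were highest. The T-mDC samples were lower still, at no more than 0.0386 FPKM for Fcnb and 0.428 FPKM for C4b. The part of other cells in both genes was not tested.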
